A study of Mus musculus with 12 samples.

Results

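Genes of DNA replication and mitosis were followed in leukocytes of the mouse prostate after adoptive T cell transfer. The 38 genes were listed by symbol, and each was read from the probes annotated to that symbol, kept where the detection p was under 0.05 on at least 3 arrays, with the brightest kept probe standing for the gene. By this rule 29 of the 38 were measured, of 11971 genes measured in all: 11 of 11 DNA replication genes, 16 of 23 mitosis genes and 2 of 4 other cell cycle genes. Ccna2, Ccnb2, Bub1, Ube2c, Kif20a, Racgap1, Cks1b and Cks2 had probes that were above background on 0 of 12 arrays, and Ccnb1 was matched to no probe in the annotation used here. All 29 measured genes were above background on every array, so none was kept through 1 group alone. RNA came from prostate cells carrying CD45, a protein on the surface of all leukocytes. The mice were TRAMP mice of the strain C57Bl/6, in which a viral oncogene driven by the prostate epithelial probasin promoter produces prostate tumors. The groups, of 3 mice each, were Tumor+Allo/Y (d28), taken 28 days after the combined transfer (samples 10, 11 and 12), Tumor+Allo/Y at 1 week (samples 7, 8 and 9), Tumor at 1 week (samples 4, 5 and 6) and Allo/Y at 1 week (samples 1, 2 and 3). Every group carried the TRAMP transgene and received a T cell transfer. What Allo/Y stands for and how old the mice were is not given in the sources used here, and mice that received no T cells are not among the 12 arrays.

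A dividing cell copies its DNA in S phase and separates the copies in mitosis. The MCM helicase opens the DNA, PCNA clamps the polymerase to it, and ribonucleotide reductase (Rrm1, Rrm2), thymidylate synthase (Tyms) and thymidine kinase (Tk1) supply nucleotides. Mitotic kinases, the spindle checkpoint and motor proteins then drive chromosome segregation and division of the cell, and these transcripts peak late in the cycle. T cells divide many times after they meet antigen, and resting leukocytes hold little of the mitotic transcripts. The promoters of replication genes are known for E2F sites, and those of mitosis genes for the cell cycle homology region (CHR) bound by MuvB complexes, both often beside CCAAT boxes, which bind NF-Y.

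Promoter sequence is shown for the 3 mitosis and 3 DNA replication genes with the smallest F test p, since the results turn on a difference between these classes. The sequences are the 250 bases before the start that the promoter table gives each gene, from RefSeq on GRCm38.p6, written 5′ to 3′ on the gene's strand. For Cenpa that start lies inside the gene's outermost annotated start, so the last bases of its window are within the gene. Capitals mark CCAAT boxes (CCAAT or its complement ATTGG) and CHR motifs (TTTGAA or its complement TTCAAA). Plk1 lies at chr7:122159185-122159434, plus strand, Cenpa at chr5:30666636-30666885, plus strand and Kif11 at chr19:37376132-37376381, plus strand. The replication genes follow, Rrm2 at chr12:24708004-24708253, plus strand, Mcm2 at chr6:88898781-88899030, minus strand and Mcm3 at chr1:20820313-20820562, minus strand.
Plk1: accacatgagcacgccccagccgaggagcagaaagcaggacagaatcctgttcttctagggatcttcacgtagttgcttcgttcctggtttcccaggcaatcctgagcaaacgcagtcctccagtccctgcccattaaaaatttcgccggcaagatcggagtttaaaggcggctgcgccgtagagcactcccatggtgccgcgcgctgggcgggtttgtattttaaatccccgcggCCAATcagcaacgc
Cenpa: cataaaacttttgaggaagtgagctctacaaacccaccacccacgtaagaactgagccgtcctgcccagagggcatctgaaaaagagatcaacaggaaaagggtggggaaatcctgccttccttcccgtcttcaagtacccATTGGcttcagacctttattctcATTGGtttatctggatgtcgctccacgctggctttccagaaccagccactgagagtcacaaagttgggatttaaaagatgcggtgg
Kif11: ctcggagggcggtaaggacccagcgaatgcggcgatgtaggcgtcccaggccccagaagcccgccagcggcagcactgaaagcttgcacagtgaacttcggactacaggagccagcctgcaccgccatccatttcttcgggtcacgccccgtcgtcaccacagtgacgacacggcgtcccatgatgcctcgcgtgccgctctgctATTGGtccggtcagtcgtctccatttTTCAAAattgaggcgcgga
Rrm2: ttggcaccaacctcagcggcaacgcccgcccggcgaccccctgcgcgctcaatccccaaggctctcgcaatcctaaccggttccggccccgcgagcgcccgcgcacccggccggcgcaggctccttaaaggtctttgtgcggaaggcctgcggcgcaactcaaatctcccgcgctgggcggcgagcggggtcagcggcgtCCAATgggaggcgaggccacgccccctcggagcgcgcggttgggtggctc
Mcm2: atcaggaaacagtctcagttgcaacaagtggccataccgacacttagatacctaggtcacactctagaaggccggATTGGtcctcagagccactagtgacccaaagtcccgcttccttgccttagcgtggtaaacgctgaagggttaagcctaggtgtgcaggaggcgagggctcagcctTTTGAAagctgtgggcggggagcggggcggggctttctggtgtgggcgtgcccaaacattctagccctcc
Mcm3: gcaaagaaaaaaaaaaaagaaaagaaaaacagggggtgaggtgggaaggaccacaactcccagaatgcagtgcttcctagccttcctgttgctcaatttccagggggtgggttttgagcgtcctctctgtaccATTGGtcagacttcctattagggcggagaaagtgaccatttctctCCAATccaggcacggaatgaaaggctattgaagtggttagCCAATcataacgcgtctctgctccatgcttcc

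All 6 windows hold a CCAAT box. In Kif11 the CHR motif begins 19 bases before the start with the box at 45, and in Mcm2 it begins 70 bases before the start. Of the 38 genes 33 had a promoter in the table, and CCAAT was found in 17 of 20 mitosis promoters (85%) and 8 of 10 replication promoters (80%), against 37.5% of the promoters of all 27025 genes. The CHR motif was found in 9 of 20 mitosis promoters (45%) and 1 of 10 replication promoters (10%), against 18.3% of all. An E2F motif (TTTCCCGC, TTTCGCGC, TTTGCCGC or TTTGGCGC, either strand) was found in 1 of 20 mitosis promoters (5%) and 3 of 10 replication promoters (30%), those of Mcm5, Mcm6 and Mcm7, against 2.16% of all. The 20 mitosis promoters include those of genes that were not measured. Of the genes called higher than Allo/Y in both 1 week comparisons below, 10 had a promoter in the table. CHR was found in 4 of these (40%), CCAAT in 7 (70%) and E2F in 0. Cdk1, Cdc20 and Prc1 hold a CHR motif and were not called higher there. The motifs were searched on both strands and no searched motif contains another. These counts describe letters in a window and say nothing of binding.

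Each array had 18981 to 21718 of 45281 probes above background. Correlations between arrays of a group over all genes ran from 0.981 to 0.986 at day 28, 0.954 to 0.986 in Tumor+Allo/Y, 0.9 to 0.99 in Tumor and 0.986 to 0.993 in Allo/Y. Tumor sample 6 and Tumor+Allo/Y sample 8 stood apart from the other arrays of their groups, and results that rest on them are given with and without them. Both were chosen by their values, so calls made without them describe the remaining arrays and are no test of the groups. Markers of all leukocytes (24 of 25 measured) summed to 115000 to 131000 at day 28, 115000 to 135000 in Tumor+Allo/Y and 112000 to 141000 in Tumor, against 43600 to 47600 in Allo/Y, on the linear scale. Epithelial markers (23 of 27 measured, Epcam not above background on any array) summed to 52200 to 96800 at day 28, 32300 to 83600 in Tumor+Allo/Y and 20500 to 86900 in Tumor, against 134000 to 186000 in Allo/Y. The Allo/Y arrays therefore held more epithelial and less leukocyte signal than every other array, although all samples are labelled CD45+. In such bulk RNA, fewer cells of a type and less RNA per cell cannot be told apart.

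**Figure D1:**
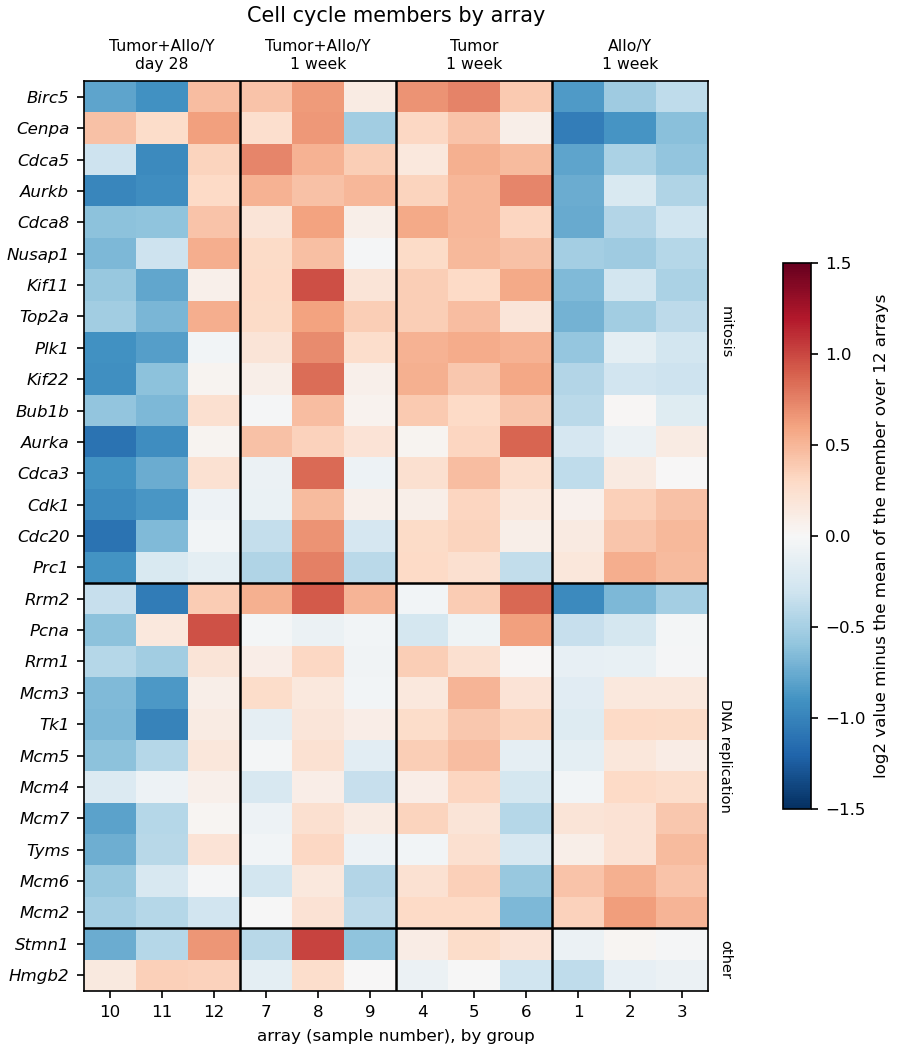
Heat map of the 29 measured genes (rows, by class) on the 12 arrays (columns, by group). Colour is the log2 value minus the mean of that gene over the 12 arrays. Most mitosis genes are low on the 3 Allo/Y arrays and on day 28 samples 10 and 11, and higher on day 28 sample 12, while most DNA replication genes differ little among the 1 week arrays. The contrast with Allo/Y turns to lower for every gene when arrays are shifted to equal leukocyte signal. That shift lowers all genes alike, and 93% to 93.3% of all genes are then called lower in the 3 comparisons with Allo/Y.

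What Tumor transfer and the combined transfer do beyond Allo/Y transfer at 1 week was addressed by setting each against Allo/Y. A set of 10 mitosis genes and 1 replication gene, the ribonucleotide reductase subunit gene Rrm2, rose in both comparisons on the normalized scale, by log2 differences of 0.68 to 1.37 in Tumor+Allo/Y and 0.85 to 1.19 in Tumor. All 11 were lower when arrays were shifted to equal leukocyte signal, where 93% of all genes were called lower in Tumor+Allo/Y and 93.3% in Tumor. In Tumor+Allo/Y 11 of 29 rose and 0 fell, while 20.6% of all genes were called higher and 27.3% lower. In Tumor 11 of 29 rose and 0 fell, while 18.2% of all genes were called higher and 22% lower. The classes differed in their counts: 10 of 16 mitosis genes and 1 of 11 replication genes rose in each. The median difference of the mitosis genes was 0.73 in Tumor+Allo/Y and 0.87 in Tumor, and that of the replication genes was −0.08 in Tumor+Allo/Y and 0.19 in Tumor, with medians over all genes of −0.04 in Tumor+Allo/Y and −0.02 in Tumor. The arrays did not overlap in 12 genes above and 2 below Allo/Y in Tumor+Allo/Y (27.6% of all genes above, 34.5% below), and in 15 above and 2 below in Tumor (26.4% of all genes above, 30.8% below). Values here are log2 intensities after background correction and quantile normalization, and differences are from 1 limma fit to all 12 arrays, ± SE with n = 3 arrays a group, two-sided, with Benjamini-Hochberg adjustment over all 11971 genes. A gene rose or fell where the adjusted p was under 0.05. Both comparisons use the same 3 Allo/Y arrays, so the identity of the 11 genes in both is not independent.

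Among the mitotic kinases and the chromosomal passenger complex, 4 of 5 genes rose in both comparisons. Plk1, the kinase of mitotic entry and spindle assembly, read 7.40, 7.48 and 8.27 at day 28, 8.51, 9.03 and 8.58 in Tumor+Allo/Y, 8.84, 8.87 and 8.84 in Tumor, and 7.74, 8.17 and 8.04 in Allo/Y. Every Tumor+Allo/Y and Tumor array at 1 week lay above every Allo/Y array and every day 28 array. Plk1 rose by 0.72 ± 0.23 in Tumor+Allo/Y (limma adjusted p = 0.0264) and by 0.87 ± 0.23 in Tumor (limma adjusted p = 0.0151). Aurkb, the catalytic kinase of the passenger complex, read 6.81, 6.87 and 8.10 at day 28, 8.32, 8.24 and 8.30 in Tumor+Allo/Y, 8.13, 8.30 and 8.53 in Tumor, and 7.06, 7.57 and 7.35 in Allo/Y. The 1 week groups with Tumor transfer again lay above Allo/Y without overlap, at 0.96 ± 0.30 in Tumor+Allo/Y (limma adjusted p = 0.0227) and 1.00 ± 0.30 in Tumor (limma adjusted p = 0.0241). Birc5, which encodes survivin, a passenger subunit, read 8.52, 8.39 and 9.76 at day 28, 9.74, 9.94 and 9.43 in Tumor+Allo/Y, 9.98, 10.05 and 9.69 in Tumor, and 8.45, 8.77 and 8.93 in Allo/Y. It rose by 0.99 ± 0.32 and 1.19 ± 0.32 in the same order of comparisons, and its 2 other kept probes gave 1.04 and 1.04 in Tumor+Allo/Y and 1.08 and 1.03 in Tumor.

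Cdca8, which encodes borealin of the same complex, read 8.83, 8.84 and 9.87 at day 28, 9.63, 10.04 and 9.52 in Tumor+Allo/Y, 10.00, 9.94 and 9.76 in Tumor, and 8.68, 9.00 and 9.14 in Allo/Y. It rose by 0.79 ± 0.27 in Tumor+Allo/Y (limma adjusted p = 0.0338) and 0.96 ± 0.27 in Tumor (limma adjusted p = 0.0186). Aurka, the centrosomal kinase, read 6.73, 6.91 and 7.88 at day 28, 8.28, 8.19 and 8.04 in Tumor+Allo/Y, 7.89, 8.16 and 8.72 in Tumor, and 7.59, 7.75 and 7.97 in Allo/Y. Its Tumor arrays overlapped those of Allo/Y, and its differences of 0.40 ± 0.29 in Tumor+Allo/Y and 0.49 ± 0.29 in Tumor did not pass.

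All 3 genes of centromere, cohesion and chromosome structure rose in both comparisons. Cenpa, the histone variant that marks the centromere, read 12.58, 12.41 and 12.75 at day 28, 12.39, 12.78 and 11.62 in Tumor+Allo/Y, 12.45, 12.56 and 12.23 in Tumor, and 11.09, 11.25 and 11.51 in Allo/Y. Every array of the other groups lay above Allo/Y. It rose by 0.98 ± 0.26 in Tumor+Allo/Y (limma adjusted p = 0.0111) and 1.13 ± 0.26 in Tumor (limma adjusted p = 0.00761), and its other, dimmer probe gave 0.73 and 0.32. Cdca5, or sororin, which protects sister chromatid cohesion, read 6.39, 5.75 and 7.04 at day 28, 7.43, 7.23 and 7.07 in Tumor+Allo/Y, 6.86, 7.23 and 7.18 in Tumor, and 5.91, 6.22 and 6.11 in Allo/Y. It had the smallest p of the 29 genes in the comparison of Tumor+Allo/Y with Allo/Y, at 1.16 ± 0.27 (limma adjusted p = 0.00628), and gave 1.01 ± 0.27 in Tumor. Top2a, the topoisomerase that untangles replicated chromosomes, read 8.85, 8.68 and 9.92 at day 28, 9.66, 9.97 and 9.74 in Tumor+Allo/Y, 9.74, 9.83 and 9.55 in Tumor, and 8.66, 8.85 and 8.97 in Allo/Y. Its differences were 0.96 ± 0.27 in Tumor+Allo/Y (limma adjusted p = 0.0157) and 0.88 ± 0.27 in Tumor (limma adjusted p = 0.0279), and its second kept probe gave 0.93 and 0.96.

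Of the 4 spindle genes 3 rose in both comparisons. Kif11, the motor that pushes spindle poles apart, read 6.62, 6.40 and 7.27 at day 28, 7.49, 8.15 and 7.38 in Tumor+Allo/Y, 7.56, 7.49 and 7.76 in Tumor, and 6.52, 6.91 and 6.71 in Allo/Y. It was higher without overlap at 1 week, by 0.96 ± 0.25 in Tumor+Allo/Y (limma adjusted p = 0.0109) and 0.89 ± 0.25 in Tumor (limma adjusted p = 0.0192). Kif22, a chromosome arm motor, read 7.85, 8.16 and 8.82 at day 28, 8.85, 9.60 and 8.85 in Tumor+Allo/Y, 9.30, 9.17 and 9.34 in Tumor, and 8.33, 8.48 and 8.46 in Allo/Y. Its rise of 0.68 ± 0.25 in Tumor+Allo/Y was close to the threshold (limma adjusted p = 0.0489), and in Tumor it was 0.85 ± 0.25. Nusap1, a spindle microtubule bundler, read 8.16, 8.52 and 9.38 at day 28, 9.12, 9.28 and 8.82 in Tumor+Allo/Y, 9.12, 9.32 and 9.27 in Tumor, and 8.33, 8.30 and 8.41 in Allo/Y. It rose by 0.73 ± 0.26 in Tumor+Allo/Y and 0.89 ± 0.26 in Tumor. Prc1, which organizes the central spindle, gave −0.42 ± 0.33 in Tumor+Allo/Y (limma adjusted p = 0.316) and −0.34 ± 0.33 in Tumor (limma adjusted p = 0.443).

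The cyclin-dependent kinase and the checkpoint genes did not pass in either comparison. Cdk1, the kinase that drives mitotic entry, read 8.06, 8.14 and 8.93 at day 28, 8.91, 9.49 and 9.09 in Tumor+Allo/Y, 9.10, 9.33 and 9.16 in Tumor, and 9.08, 9.37 and 9.45 in Allo/Y. The 3 groups taken at 1 week overlapped, with differences of −0.14 ± 0.23 in Tumor+Allo/Y and −0.10 ± 0.23 in Tumor. Bub1b, a checkpoint kinase, gave 0.36 ± 0.24 and 0.56 ± 0.24 (limma adjusted p = 0.0814 in Tumor), and Cdca3, a trigger of mitotic entry, gave 0.31 ± 0.32 and 0.40 ± 0.32. The other, dimmer kept probe gave 0.76 and 0.67 for Bub1b and 0.50 and 0.41 for Cdca3. Cdc20, the activator of the anaphase-promoting complex, gave −0.32 ± 0.30 in Tumor+Allo/Y and −0.11 ± 0.30 in Tumor. Both brighter of its other probes were below 0 as well in both comparisons, and the dimmest gave 0.49 and 0.53, so the probes of Cdc20 disagreed in direction.

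Among the DNA replication genes 1 of 11 rose in each comparison. Rrm2 read 6.79, 6.09 and 7.51 at day 28, 7.68, 8.05 and 7.64 in Tumor+Allo/Y, 7.10, 7.52 and 8.00 in Tumor, and 6.18, 6.47 and 6.63 in Allo/Y. It rose by 1.37 ± 0.33 in Tumor+Allo/Y (2.58-fold, limma adjusted p = 0.00789) and 1.11 ± 0.33 in Tumor (2.16-fold, limma adjusted p = 0.0243), and its second kept probe gave 1.05 and 0.93. The subunit gene Rrm1 gave 0.21 ± 0.19 and 0.30 ± 0.19. Mcm2, a helicase subunit, read 9.20, 9.28 and 9.42 at day 28, 9.70, 9.92 and 9.31 in Tumor+Allo/Y, 10.01, 10.00 and 9.04 in Tumor, and 10.05, 10.33 and 10.22 in Allo/Y. All its Allo/Y arrays lay above every other array, but the differences of −0.55 ± 0.25 in Tumor+Allo/Y (limma adjusted p = 0.0951) and −0.52 ± 0.25 in Tumor (limma adjusted p = 0.128) did not pass. Mcm6 was alike, with no overlap and −0.65 ± 0.25 in Tumor+Allo/Y (limma adjusted p = 0.0535) and −0.46 ± 0.25 in Tumor. Mcm3 read 7.56, 7.36 and 8.31 at day 28, 8.50, 8.37 and 8.18 in Tumor+Allo/Y, 8.38, 8.74 and 8.43 in Tumor, and 8.06, 8.38 and 8.39 in Allo/Y, with overlapping 1 week groups. Mcm4, Mcm5, Mcm7, Pcna, Tyms and Tk1 lay between −0.33 and 0.31 in both comparisons and none passed. The brightest probe of Tk1 gave −0.08 in Tumor+Allo/Y while its other kept probe gave 0.81, and 1 of 3 other kept probes of Tyms was above 0 there (0.28 against −0.19 on the brightest). Hmgb2, a chromatin protein, gave 0.24 ± 0.15 and 0.07 ± 0.15, and Stmn1, which destabilizes microtubules, gave 0.02 ± 0.42 and 0.22 ± 0.42.

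**Figure D2:**
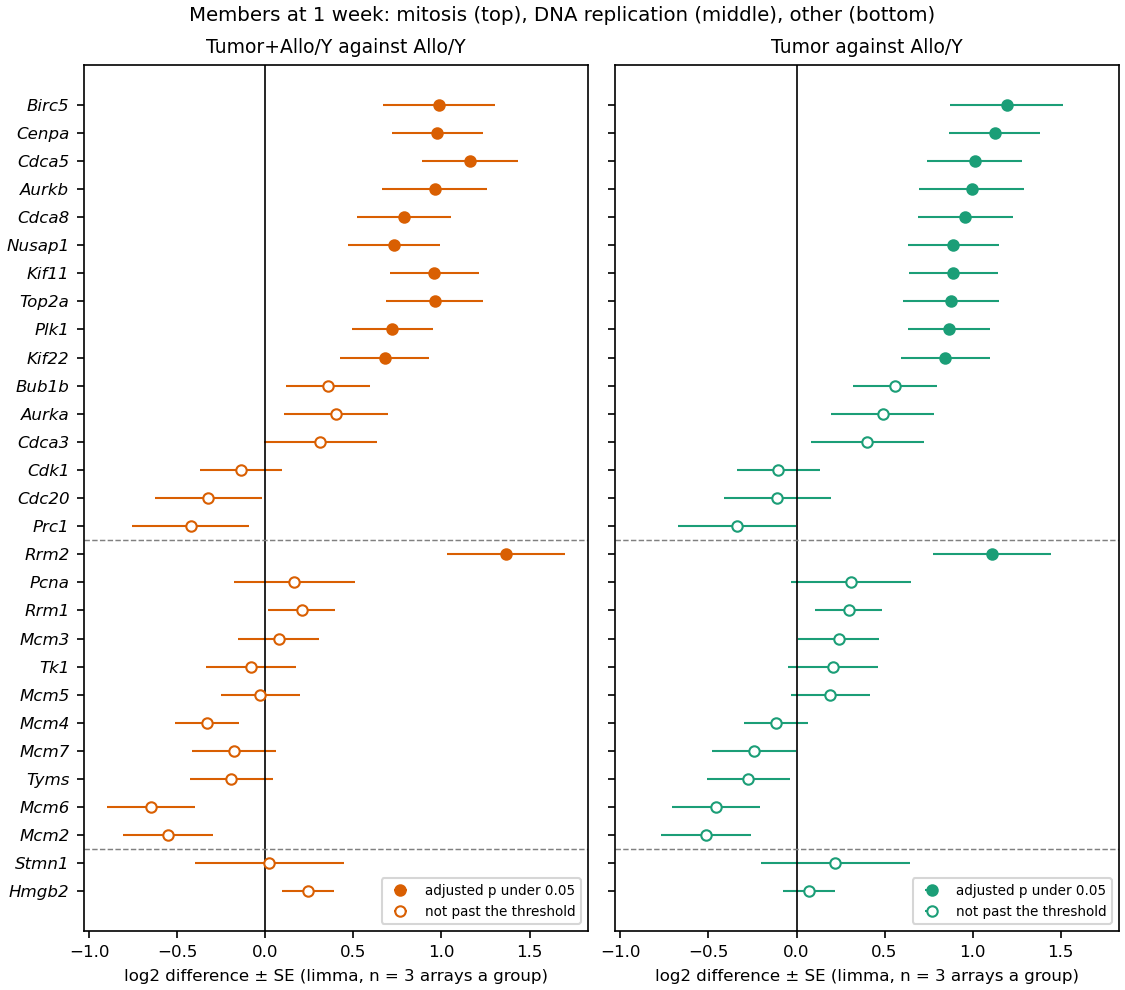
Log2 differences with SE (x axis, limma, n = 3 arrays a group) of the 29 genes (y axis) in Tumor+Allo/Y (left) and Tumor (right) against Allo/Y at 1 week. Filled points have an adjusted p under 0.05. The same 11 genes are filled in both panels, 10 of them mitosis genes. All 11 turn to lower when arrays are shifted to equal leukocyte signal, where 93% of all genes are called lower in Tumor+Allo/Y and 93.3% in Tumor.

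**Figure D3:**
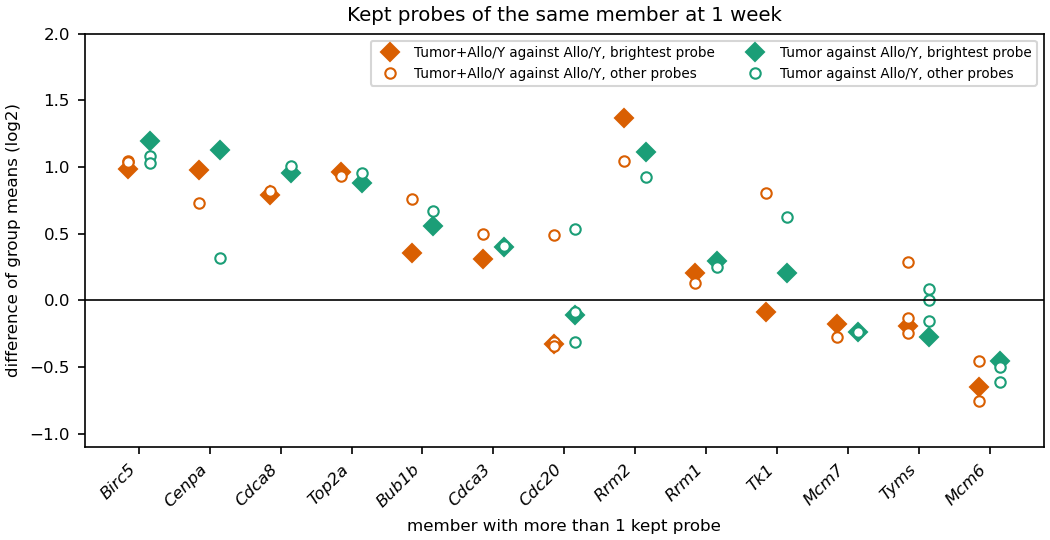
Differences of group means on the log2 scale (y axis) for every kept probe of the 13 genes with more than 1 kept probe (x axis), in Tumor+Allo/Y (orange) and Tumor (green) against Allo/Y. Diamonds are the brightest probe and open circles the others. Probes of Birc5, Cdca8, Top2a and Rrm2 lie close together, and those of Cdc20, Tk1 and Tyms fall on both sides of 0 in at least 1 comparison.

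Leukocyte and epithelial signal moved with these differences, and T cell markers (11 of 15 measured) summed to 10100 to 24900 in Tumor+Allo/Y and 14000 to 27200 in Tumor, against 3420 to 3990 in Allo/Y. The mean of the 24 leukocyte genes was higher by 2.16 in Tumor+Allo/Y and by 2.04 in Tumor than in Allo/Y, more than any of the 29 genes rose. With each array shifted to an equal leukocyte mean, 29 of 29 genes were called lower in both comparisons, while 93% of all genes were called lower in Tumor+Allo/Y and 93.3% in Tumor. That shift lowers every gene alike and moves the median of all genes to −2.21 in Tumor+Allo/Y and −2.05 in Tumor, so relative to that median the mitosis genes, with medians of −1.44 and −1.16, still stood higher and the replication genes, with −2.25 and −1.84, stood near it. The gap between the classes is free of such shifts, since it is taken within an array. The mean shift of the mitosis genes from their Allo/Y means exceeded that of the replication genes by 0.27 ± 0.12 at day 28, 0.59 ± 0.13 in Tumor+Allo/Y and 0.59 ± 0.13 in Tumor, against 0.00 ± 0.04 in Allo/Y (SD, n = 3 arrays each). No array of the other groups reached into the Allo/Y range, with gaps of 0.19 to 0.41 at day 28, 0.50 to 0.74 in Tumor+Allo/Y and 0.49 to 0.74 in Tumor, against −0.04 to 0.05 in Allo/Y. The Allo/Y gaps centre on 0 because shifts are taken from the Allo/Y means. The gap restates the differences of the same genes and is no separate test. On day 28 samples 10 and 11 both classes lay below Allo/Y, mitosis at −0.43 and −0.37 and replication at −0.64 and −0.56. The part of the changed mix of leukocytes and epithelium in this gap was not tested. Counts of risen genes depended on single arrays: without Allo/Y sample 1 they were 4 in Tumor+Allo/Y (Rrm2, Cenpa, Cdca5 and Kif11), while 15.6% of all genes were called higher, and 1 in Tumor (Cenpa), while 12.5% of all genes were called higher. Without Allo/Y samples 2 and 3 in turn they were 7 and 7 in Tumor+Allo/Y (16.6% and 16.1% of all genes) and 7 and 6 in Tumor (13.9% and 13.4% of all genes). Without Tumor+Allo/Y sample 7 or 8 the count was 6 in Tumor+Allo/Y, while 14.9% and 22.4% of all genes were called higher, and without Tumor sample 5 or 6 it was 7 in Tumor, while 16.1% and 14.5% were. Leaving out samples 6 and 8 together gave 6 risen and 4 fallen genes in Tumor+Allo/Y, both smaller shares of the 29 than the 26.8% of all genes called higher and 33.5% lower. It gave 9 risen in Tumor, while 17.8% of all genes were called higher. The 4 fallen genes were Mcm2 (−0.69), Mcm4 (−0.46), Mcm6 (−0.82) and Prc1 (−0.82), and Mcm2 and Mcm6 also fell without Tumor sample 6 alone, where 31.1% of all genes did.

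**Figure D4:**
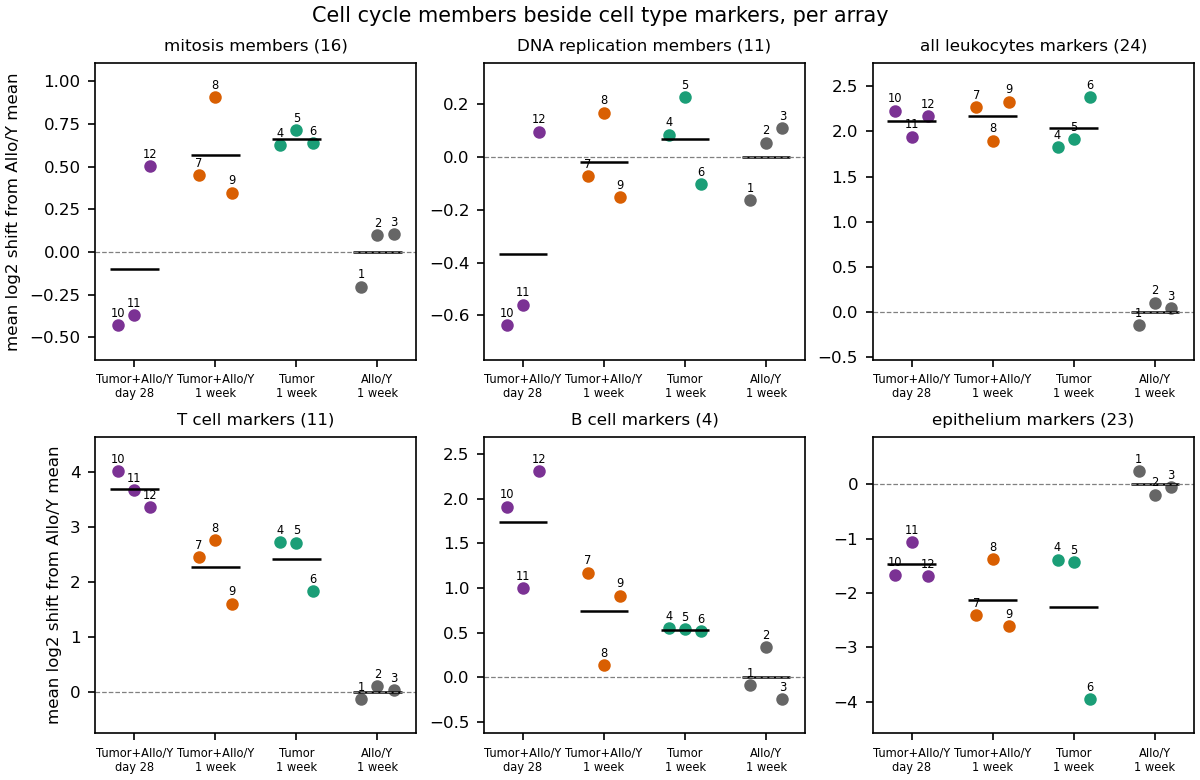
Mean log2 shift from the Allo/Y mean (y axis, own scale in each panel) on each array, numbered by sample, for the 16 mitosis and 11 DNA replication genes and for markers of leukocytes, T cells, B cells and epithelium. Horizontal lines are group means of 3 arrays. The mitosis genes stand at 0.35 to 0.91 in Tumor+Allo/Y and 0.63 to 0.71 in Tumor, while the leukocyte markers stand higher than in Allo/Y by group means of 2.04 to 2.16. A shift to equal leukocyte signal lowers all genes alike. With it the mitosis genes are called lower than in Allo/Y, as are 93% of all genes in Tumor+Allo/Y and 93.3% in Tumor.

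Whether adding Allo/Y to Tumor transfer changed these genes at 1 week was addressed by Tumor+Allo/Y against Tumor. Differences were small: the 29 genes lay between −0.29 (Tk1) and 0.25 (Rrm2), with 7 above and 22 below 0, a median of −0.15, and a median over all genes of −0.04. None was called by limma (0% of all genes called), and 0 of the 29 genes had an unadjusted p under 0.05, against 451 of 11971 genes (3.77%). Plk1 gave −0.15 ± 0.23, Birc5 −0.21 ± 0.32, Top2a 0.08 ± 0.27 and Cenpa −0.15 ± 0.26, all with a limma adjusted p of 1. Only Tk1, the thymidine kinase gene, had groups that did not overlap, at −0.29 ± 0.25, with Tumor+Allo/Y below, where 4.71% of all genes lay below and 1.93% above. The other kept probe of Tk1 gave 0.19, so its probes disagreed in direction. The widest gene in Tumor+Allo/Y was Stmn1, whose sample 8 read 7.95 beside 6.52 and 6.33 on samples 7 and 9. Relative to the Allo/Y means, the mitosis genes averaged 0.91 on sample 8, against 0.45 on sample 7 and 0.35 on sample 9. The replication genes averaged 0.17, −0.07 and −0.15 on the same arrays. Without samples 6 and 8, 1 gene was called lower in Tumor+Allo/Y than in Tumor, Mcm6 at −0.65 (limma adjusted p = 0.031), a smaller share of the 29 than the 14% of all genes called lower in that fit. With all arrays 0% of all genes were called. The arrays left out were chosen by their values, so the call of Mcm6 is no test of the groups.

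Changes over time were addressed by the combined transfer at day 28 against 1 week. Most of the 29 genes were lower at day 28, 25 of 29 below 0 with a median of −0.55 (mitosis −0.74, replication −0.37, all genes 0.00), but none passed the test with all 3 day 28 arrays weighted equally. With array weights estimated from the data, 9 of 29 were called lower, while 9.52% of all genes were. Those weights were 1.18, 1.37 and 0.69 on samples 10, 11 and 12, and 1.21, 0.29 and 0.90 on samples 7, 8 and 9. By limma 0 genes rose and 0 fell, while 1.7% of all genes were called higher and 0.351% lower, and 12 of the 29 had an unadjusted p under 0.05, all of them lower, against 20.3% of all genes in either direction. The largest differences were those of Aurkb (−1.02 ± 0.30, limma adjusted p = 0.0989), Aurka (−0.997 ± 0.29, limma adjusted p = 0.102) and Rrm2 (−0.99 ± 0.33, limma adjusted p = 0.14), and the smallest adjusted p was that of Plk1 (−0.99 ± 0.23, limma adjusted p = 0.0571). In 7 genes (Rrm2, Plk1, Aurka, Aurkb, Cdca5, Kif11 and Kif22) every day 28 array lay below every 1 week array, and in 0 above, where 10.9% of all genes lay below and 12.9% above. Cenpa, Pcna, Mcm4 and Hmgb2 were the 4 genes above 0, at 0.32 ± 0.26, 0.22 ± 0.34, 0.10 ± 0.18 and 0.24 ± 0.15. The other, dimmer kept probe of Cenpa gave −0.14.

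The day 28 mice differed among themselves. On sample 10, 26 of 29 genes lay below all 3 Tumor+Allo/Y arrays of 1 week, on sample 11 22 did, and on sample 12 7 did, against 28.9%, 29.8% and 21.9% of all genes. Sample 12 had the highest of the 3 day 28 values in 28 of 29 genes, the exception being Hmgb2, while it had the highest value in 35.6% of all genes. Relative to the Allo/Y means, the mitosis genes averaged −0.43 on sample 10, −0.37 on sample 11 and 0.50 on sample 12, and the replication genes −0.64, −0.56 and 0.10. B cell markers (4 of 8 measured, Pax5 not above background on any array) summed to 2190, 1030 and 2760 on samples 10, 11 and 12, T cell markers (11 of 15 measured, Cd5 and Cd8a not above background on any array) to 71200, 61100 and 43700, and leukocyte markers to 131000, 115000 and 130000. Between day 28 and 1 week, T cell markers had a median difference of 1.36, with 5 of 11 called higher and 0 lower. Markers of neutrophils and their precursors (9 of 13 measured, Elane not above background on any array) had a median difference of −0.965, with 1 of 9 called lower, and summed to 3170 to 5920 at day 28, against 5520 to 10700 at 1 week. The part of these markers in the result was not tested.

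Without sample 12, 14 of 29 genes were called lower at day 28 than at 1 week of the same transfer, 11 of 16 mitosis genes and 3 of 11 replication genes (Mcm3, Rrm2 and Tk1), while 1.17% of all genes were called lower. The choice of this array followed from its values, so these calls describe samples 10 and 11 and are no test of day 28. In that fit Aurkb fell by 1.44 (limma adjusted p = 0.00916), Plk1 by 1.26 (limma adjusted p = 0.014) and Top2a by 1.02 (limma adjusted p = 0.0169). With all day 28 arrays but without samples 6 and 8, 3 genes were called lower, Plk1 (−0.83), Aurka (−0.99) and Aurkb (−1.05), about the share of all genes called lower in that fit (12.2%). Without Tumor sample 6 alone Plk1 and Aurka were called lower, while 2.46% of all genes were.

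**Figure D5:**
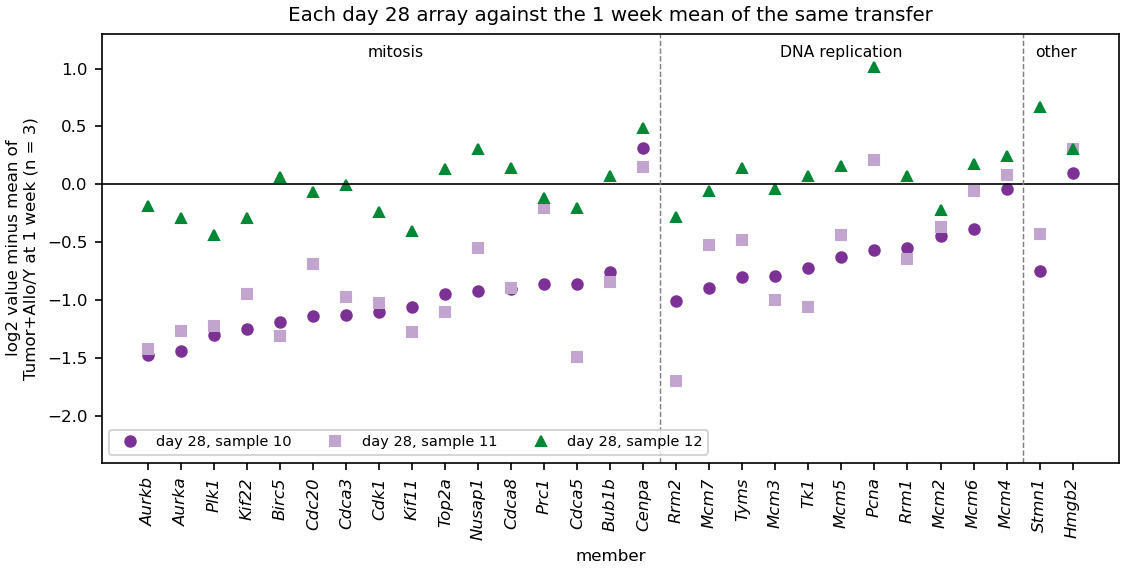
Log2 value of each day 28 array minus the mean of the 3 Tumor+Allo/Y arrays at 1 week (y axis) for the 29 genes (x axis, by class). Samples 10 and 11 lie below 0 for most genes, with medians of −0.86 and −0.84, and sample 12 lies near 0, with a median of 0.06. Cenpa, on its brightest probe, and Hmgb2 lie above 0 on all 3 arrays. The other kept probe of Cenpa gave a difference of group means of −0.14.

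Day 28 of the combined transfer was also set against both single transfers at 1 week, where treatment and time both differ and cannot be told apart. Against Allo/Y 2 of 29 genes rose and 5 fell, while 18.9% of all genes were called higher and 24.4% lower. The fallen genes were Mcm2 (−0.90 ± 0.25, limma adjusted p = 0.0166), Mcm6 (−0.74 ± 0.25), Mcm7 (−0.67 ± 0.24), Cdk1 (−0.92 ± 0.23, limma adjusted p = 0.00987) and Cdc20 (−0.95 ± 0.30), and all kept probes of Mcm6, Mcm7 and Cdc20 were below 0. The arrays did not overlap in 2 genes above and 6 below Allo/Y, while 28.8% of all genes lay above and 35.8% below. Here 3 of 11 replication genes and 2 of 16 mitosis genes fell. Cenpa rose by 1.29 ± 0.26 (2.45-fold, limma adjusted p = 0.00277) and Hmgb2 by 0.48 ± 0.15 (limma adjusted p = 0.023), and both were lower with arrays shifted to equal leukocyte signal, where all 29 genes were called lower and 93.2% of all genes with them. Cenpa was thus the gene called higher than Allo/Y in all 3 of the other groups. Without sample 12 the fallen genes numbered 10, while 18.4% of all genes were called lower, and they numbered 1 without sample 10 and 2 without sample 11, while 17.8% and 20.7% of all genes were called lower. Sample 12 was chosen by its values, so the count without it is no test of day 28. Without Allo/Y samples 1, 2 and 3 in turn the fallen genes numbered 3, 1 and 2, while 17.5%, 18.7% and 18.4% of all genes were called lower. With array weights 11 fell, while 33.6% of all genes did. Cdk1 was among the fallen genes and Cenpa among the risen in each of these fits.

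Against Tumor, 26 of 29 genes were below 0 at day 28 with a median of −0.70, and 1 gene, Plk1, fell (−1.13 ± 0.23, 2.19-fold lower, limma adjusted p = 0.0438), while 0.802% of all genes were called lower and 1.32% higher. Aurka (−1.08 ± 0.29), Aurkb (−1.06 ± 0.30) and Birc5 (−1.02 ± 0.32) were the largest differences that did not pass. In 11 genes the groups did not overlap with day 28 below and in 1 (Hmgb2) with day 28 above, against 12.9% of all genes below and 12.2% above. The call of Plk1 was lost when any 1 of 10 arrays was left out and kept without Tumor+Allo/Y sample 8 or day 28 sample 12. Without samples 6 and 8, Mcm2 (−0.70) and Kif22 (−0.96) were called lower beside Plk1, while 5.68% of all genes were. With array weights 21 of 29 were called lower, while 8.88% of all genes were. The weights were 0.88, 3.56 and 0.15 on Tumor samples 4, 5 and 6, so the Tumor mean there rested mostly on sample 5. Without sample 12 Plk1 was 1 of 15 fallen genes, 12 of them mitosis genes, while 1.44% of all genes were called lower. That array was chosen by its values, so these calls describe the other day 28 arrays and are no test of day 28.

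Across the 4 groups 12 of 29 genes differed by the F test, 11 of 16 mitosis genes and 1 of 11 replication genes, while 45.7% of all genes differed. The smallest adjusted p values were those of Plk1 (0.00672, limma F test), Cenpa (0.0087) and Kif11 (0.0135).

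Other genes of the cycle were read from lists drawn by function. Of 33 measured further replication genes (of 40 listed), 2 rose and 5 fell in Tumor+Allo/Y against Allo/Y and 3 rose and 2 fell in Tumor, with medians of −0.04 and 0.01. These are shares of 6.06% risen and 15.2% fallen in Tumor+Allo/Y, where 20.6% of all genes were called higher and 27.3% lower, and of 9.09% and 6.06% in Tumor, where 18.2% were called higher and 22% lower. Dbf4, the activator of the kinase that fires origins, rose by 1.12 ± 0.18 in Tumor+Allo/Y and 1.02 ± 0.18 in Tumor, and the flap endonuclease gene Fen1 rose by 0.71 ± 0.17 and 0.80 ± 0.17. Dut, which keeps uracil out of DNA, fell by 0.78 ± 0.21 in Tumor+Allo/Y. Of these 33, day 28 had 2 risen and 12 fallen members relative to Allo/Y (18.9% of all genes higher, 24.4% lower), among them the helicase partners Gins1 (−1.23 ± 0.20) and Gins2 (−1.25 ± 0.20). At day 28 against 1 week 1 fell, the clamp loader gene Rfc3 (−0.92 ± 0.19), and against Tumor 4 fell. These are shares of 3.03% and 12.1%, where 0.351% and 0.802% of all genes were called lower.

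Of 44 measured further mitosis genes (of 56 listed), 8 rose and 2 fell in Tumor+Allo/Y and 8 rose and 1 fell in Tumor against Allo/Y, with medians of 0.32 and 0.36. The risen share of 18.2% in both was no larger than that of all genes (20.6% in Tumor+Allo/Y and 18.2% in Tumor), and the fallen shares of 4.55% and 2.27% stood beside 27.3% and 22% of all genes. The motor gene Kif15 rose by 1.07 ± 0.16 in Tumor+Allo/Y and 1.09 ± 0.16 in Tumor, the separase gene Espl1 by 1.35 ± 0.26 and 1.44 ± 0.26. The condensin gene Ncaph fell by 1.15 ± 0.31 in Tumor+Allo/Y. At day 28 against 1 week the median was −0.67, and 2 of 44 fell (4.55%), where 0.351% of all genes were called lower. They were the centromere gene Cenpm (−1.23 ± 0.23, limma adjusted p = 0.0372) and the motor gene Kif2c (−1.16 ± 0.25, limma adjusted p = 0.0437). Both were also lower than in Tumor, where 0.802% of all genes were called lower. Pttg1, which encodes securin, rose against 1 week by 0.78 ± 0.14 (limma adjusted p = 0.0312), reading 7.27, 7.07 and 6.95 at day 28, against 6.30, 6.44 and 6.20 in Tumor+Allo/Y. It was the 1 risen gene of the 44 (2.27%), where 1.7% of all genes were called higher. Relative to Allo/Y, day 28 had 5 risen and 11 fallen members of this list (18.9% of all genes higher, 24.4% lower). Each named gene of the further lists that rose against Allo/Y rose by less than the leukocyte mean did, and turns to lower when arrays are shifted to equal leukocyte signal.

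Of 25 measured G1 cyclins, kinases and E2F-Rb factors (of 28 listed), 10 rose and 7 fell in Tumor+Allo/Y, 9 rose and 6 fell in Tumor and 6 rose and 8 fell at day 28, each against Allo/Y. Over all genes, the risen share was 20.6% in Tumor+Allo/Y, 18.2% in Tumor and 18.9% at day 28, and the fallen share was 27.3%, 22% and 24.4% in that order. Ccnd2, a D cyclin of leukocytes, read 11.85, 11.71 and 11.61 at day 28, 11.66, 11.40 and 11.80 in Tumor+Allo/Y, 11.44, 11.78 and 11.28 in Tumor, and 9.92, 10.12 and 9.87 in Allo/Y. It lay above Allo/Y on every other array and rose by 1.75 ± 0.16, 1.65 ± 0.16 and 1.53 ± 0.16 in the same order of groups, less than the leukocyte mean in each. Myc, the growth factor-induced transcription factor, fell by 1.08 ± 0.15 in Tumor+Allo/Y and 1.01 ± 0.15 in Tumor. None of the 25 was called between day 28 and either 1 week group with Tumor transfer, where 0.351% to 1.7% of all genes were called in a given direction.

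Of 21 measured CDK inhibitors and arrest genes (of 23 listed), 5 rose and 9 fell in Tumor+Allo/Y, 4 rose and 6 fell in Tumor and 6 rose and 4 fell at day 28, each against Allo/Y. The risen shares of 23.8% in Tumor+Allo/Y and 19% in Tumor were close to the 20.6% and 18.2% of all genes, and the fallen shares were 42.9% and 28.6%, against 27.3% and 22% of all genes. At day 28 the risen share was 28.6% and the fallen share 19%, against 18.9% and 24.4% of all genes. Cdkn1a, which encodes p21, read 11.50, 11.60 and 12.30 at day 28, 13.02, 12.26 and 13.00 in Tumor+Allo/Y, 11.90, 12.20 and 12.98 in Tumor, and 10.95, 11.06 and 11.21 in Allo/Y. It rose by 1.69 ± 0.31 in Tumor+Allo/Y (limma adjusted p = 0.00192) and 1.29 ± 0.31 in Tumor (limma adjusted p = 0.01). Other genes of the list went the other way. Btg2 averaged 4.71 at day 28, 4.61 in Tumor+Allo/Y and 5.37 in Tumor, against 5.97 in Allo/Y (limma F test adjusted p = 0.000304). It was above background on 0 arrays of the first 2 groups. Tob1 averaged 9.17, 9.09 and 8.87 in the same order, against 10.39 in Allo/Y (limma F test adjusted p = 0.00727). Foxo1, a transcription factor of quiescent T cells, was the 1 gene of this list called at day 28 against 1 week, at 10.22, 10.09 and 9.92 at day 28, against 8.73, 8.91 and 8.00 in Tumor+Allo/Y (1.53 ± 0.26, limma adjusted p = 0.028), and it was higher than Tumor by 1.56 ± 0.26 (limma adjusted p = 0.0271). Over all genes, 1.7% were called higher at day 28 against 1 week and 1.32% against Tumor. T cell markers moved the same way as Foxo1, summing to 43700 to 71200 at day 28, 10100 to 24900 in Tumor+Allo/Y and 14000 to 27200 in Tumor, and their part in the Foxo1 difference was not tested.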

How the data were processed

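RNA of CD45+ cells was hybridized to Illumina BeadChips, 12 arrays in 4 groups of 3 mice. The authors deposited raw signal intensity with a detection p-value per probe and array, not normalized between arrays, and a normalized table of linear intensity whose columns share their quantiles. GenomeStudio is named per the submitters' processing notes, without version or settings. Probe symbols came from GEO's platform annotation, updated by Entrez ID. Of 45281 probes 34885 had 1 symbol, 18 several and 10378 none. Of 23054 kept probes, 19235 had 1 symbol.

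With R 4.3.3 and limma 3.58.1, neqc corrected the background (negative controls inferred from detection p-values) with an offset of 16, followed by quantile normalization and log2. The limma fit had a mean per group over all 12 arrays (residual degrees of freedom 8, prior 2.46), with Benjamini-Hochberg adjustment over 11971 genes. Promoters were searched with Python 3.11.15. An exact permutation of 3 arrays against 3 has a smallest p of 0.1 and was left out. The number of arrays limits the precision. The pipeline was tested on simulated data. The genes, lists and tests were chosen with earlier results of these data known. Named genes: on every array, the 12 genes called by the F test and the next 2 replication genes; per comparison, all called genes and the 3 largest others; up to 4 called genes of each further list. Nusap1, Ccnd2, Cdkn1a, Foxo1, Pttg1 and Stmn1 were given array values after these were seen. Alternatives changed background correction, normalization, filter, probe handling, arrays, variance model and scaling.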

Additional observations from a re-analysis of the deposited data

How the results depend on the processing

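Counts of the 29 genes called are given for each change of processing that moved them, and for these the cause was not tested unless stated. With each array shifted to equal leukocyte signal, 0 genes were higher and 29 lower in all 3 comparisons with Allo/Y, 0 were lower at day 28 against Tumor, and 29 differed by the F test, since the shift lowers all genes alike. Of all genes, 93% to 93.3% were called lower in the 3 comparisons with Allo/Y under that shift, and 0.0919% at day 28 against Tumor. Under it, the differences of Tumor+Allo/Y from Allo/Y turned to −0.80 for Rrm2, −1.44 for Plk1, −1.20 for Aurkb, −1.18 for Birc5, −1.38 for Cdca8, −1.19 for Cenpa, −1.003 for Cdca5, −1.20 for Top2a, −1.21 for Kif11, −1.49 for Kif22 and −1.43 for Nusap1. Those of Tumor turned to −0.92 for Rrm2, −1.17 for Plk1, −1.04 for Aurkb, −0.84 for Birc5, −1.08 for Cdca8, −0.91 for Cenpa, −1.03 for Cdca5, −1.16 for Top2a, −1.15 for Kif11, −1.19 for Kif22, −1.15 for Nusap1, −1.48 for Bub1b and −1.55 for Aurka. Those of day 28 turned to −0.82 for Cenpa and −1.63 for Hmgb2. In Tumor+Allo/Y against Allo/Y, 1 gene was lower with the authors' normalized table, without background correction or with a trended robust variance, 2 with only the compared groups and 4 with array weights. Of all genes, 28%, 28% and 27.3% were called lower in the first 3 of these fits and 34.8% with array weights. The share of all genes was not counted for only the compared groups. Without samples 6 and 8, Tumor+Allo/Y against Allo/Y had 6 higher (26.8% of all genes) and 4 lower (33.5% of all genes). In that fit Tumor+Allo/Y against Tumor had 1 lower (14% of all genes), and day 28 had 3 lower against 1 week (12.2%) and 3 against Tumor (5.68%). Array weights gave 9 lower at day 28 against 1 week (9.52% of all genes), 11 against Allo/Y (33.6%) and 21 against Tumor (8.88%). They gave 27 by the F test, for which the share of all genes was not counted. No detection filter gave 3 lower at day 28 against Allo/Y, where 15% of all genes were called lower, and only the compared groups gave 0 against Tumor. Leaving out 1 array at a time gave 4 to 11 higher and 0 to 2 lower in Tumor+Allo/Y against Allo/Y. Of all genes, 14.9% to 24% were called higher there and 18.1% to 31.1% lower. It gave 1 to 12 higher and 0 to 0 lower in Tumor against Allo/Y, where 12.5% to 20.2% of all genes were called higher and 12.5% to 24.4% lower. It gave 0 in Tumor+Allo/Y against Tumor, where at most 0.00835% of all genes were called. For day 28 it gave 0 to 14 lower against 1 week (0% to 2.46% of all genes) and 0 to 15 lower against Tumor (0% to 1.44%). Against Allo/Y it gave 1 to 2 higher (14.6% to 22% of all genes) and 1 to 10 lower (17.5% to 29.6%). The F test called 5 to 20, and the share of all genes was not counted for it. A group left with 2 arrays shared the spread of the others. No paired analysis was possible because sample numbers are not shared between groups. The chip as a block was not run, since the headers name no chip. Signal over background did not limit the 29 genes, all detected on 12 arrays.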
